A study of Mus with 3 samples.

Results

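Trim12a and 7 of its neighbours (Trim5, Trim12c, Trim30a, Trim30b, Trim30c, Trim30d and Trim34a) form a block of related genes on mouse chromosome 7, and these 8 genes of the 32285 in the count matrix are described here across the cells of MC38 tumors. They were chosen by name and position, starting from Trim12a, which had no UMI in RARα-KO host cells while WT host cells had many. The Trim12a values of RARα-KO against WT are therefore a description and not a finding, in T cells and in every other host class. The question was whether the relatives next to Trim12a were missing from the same cells. MC38 is a mouse colon cancer line, and its tumors were grown for 16 days in WT mice, in RARα-KO mice and in RARα-TG mice. In RARα-KO mice (dLck-Cre crossed with floxed Rara), Cre under the distal Lck promoter deletes part of Rara, the gene of retinoic acid receptor α, in T cells. RARα-TG mice carry Rara under the CD2 promoter, which is active in T cells. In neither strain does the driver act in the injected MC38 cells.

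For each genotype the labels give 30000 sorted T cells (CD45.2+ CD3+) and 10000 cells of the whole suspension, marked with 1 antibody hashtag and pooled into 1 droplet library, so each genotype was 1 sample. The number of mice and the control strain behind the WT tumor were not given in the sources used here. The labels also call the material activated naive CD8 cells of the spleen, which goes against the tumor protocol in the same labels. With 1 sample a genotype there was no replicate and no test: all intervals below are 95% intervals of counting error only, and a difference between genotypes cannot be told apart from a difference between animals, strain backgrounds or tumors.

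TRIM proteins are E3 ubiquitin ligases with a RING domain, and many of them are made in response to interferons. TRIM5 is known for binding the capsids of incoming retroviruses, and Trim5, Trim12a, Trim12c and the Trim30 genes are the mouse relatives of that gene, in a block that has duplicated repeatedly in rodents. TRIM30a is known to promote the degradation of TAB2 and TAB3 and thereby to restrain NF-κB signaling, and TRIM12c is known to work together with TRAF6 in interferon and NF-κB signaling. TRIM30d, also called TRIM79, is an interferon-induced antiviral protein.

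On GRCm38, the build of the authors' processing, Trim34a lay at chr7:104244448-104262244, Trim5 at chr7:104263386-104288254 and Trim12a at chr7:104299893-104315558. Trim12c followed at chr7:104338754-104353358, Trim30b at chr7:104355398-104358646 and Trim30c at chr7:104379117-104400852. Trim30a (chr7:104409025-104465193) and Trim30d (chr7:104470014-104507853) closed the block. Reads that match several of these similar copies are not counted for any 1 of them, so the count of each member is uncertain to the extent that its reads are shared.

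The matrix held 46394322 gene UMIs (unique molecular identifiers, each standing for 1 captured RNA molecule), of which 96.4% were in 5585 barcodes called as cells. By hashtag, 1927 cells were WT (17766060 UMIs), 2103 were RARα-KO (16191256 UMIs) and 895 were RARα-TG (4011140 UMIs). Of 1759 T cells in 106 clonotypes with 5 or more cells, 3 (0.171%, Clopper-Pearson interval 0.0352 to 0.498) carried another hashtag than the rest of their clonotype. T cells came from 11 clusters with 1453 WT, 1713 RARα-KO and 781 RARα-TG cells, macrophages from 1 cluster with 77, 126 and 35 cells, and MC38 or stromal cells from 2 clusters with 273, 127 and 19 cells. The last class was led by Col3a1 and Dcn or by genes of dividing cells, had Tm4sf1 at 828 CPM (counts per 1000000 gene UMIs of the class), and had the keratins Krt8 and Krt18 and Epcam at 0.2 CPM or less, so MC38 cells and host stroma cannot be told apart in it. Rara itself had 87.5 CPM (81.2 to 94.3) in WT T cells, 80.3 CPM (75.0 to 85.9) in RARα-KO and 249 CPM (232 to 267) in RARα-TG. Gene counts do not show which exons the reads cover, so the RARα-KO value checks nothing about the deleted part, while the RARα-TG value goes with its label.

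In RARα-KO T cells, 3 relatives of Trim12a were lower along with it and 2 were not. Trim5 and Trim30d were nearly undetected, Trim34a was lower by a smaller margin, and Trim12c and Trim30a were at or slightly above the WT level. The lower genes were not contiguous on the chromosome: Trim12c and Trim30a, which were retained, lay between Trim12a and Trim30d. Trim30b and Trim30c were hardly detected in T cells of any genotype.

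Trim12a had 231 UMIs in WT T cells (29.0 CPM, 25.4 to 33.0), none, that is 0, under the RARα-KO hashtag and 76 under that of RARα-TG (23.8 CPM, 18.7 to 29.7). At the WT level, 305 UMIs would have been counted in the RARα-KO T cells, and a count of 0 allows up to 0.285 CPM there, a log2 ratio to WT of at most -6.67. A Trim12a UMI was found in 194 of 1453 WT T cells (13.4%) and in 0 of 1713 RARα-KO T cells, which allows a share of up to 0.175%, at median depths of 4415 and 4938 UMIs a cell. The droplets without a cell held 15 Trim12a UMIs among 1405263 (10.7 CPM, 5.97 to 17.6), so free Trim12a RNA was present in the library. These UMIs were spread over 223803 barcodes of 100 or fewer UMIs each. The 0 in those 1713 cells, by which Trim12a was chosen, is therefore no test of carry-over of free RNA.

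Trim5, the gene next to Trim12a on the side of Trim34a, had 75 UMIs in WT T cells (9.42 CPM, 7.41 to 11.8), 1 UMI in RARα-KO (0.0951 CPM, 0.00241 to 0.530) and 22 in RARα-TG (6.88 CPM, 4.31 to 10.4). The log2 ratio of RARα-KO to WT was -6.63 (-11.95 to -4.11), where 99 UMIs would have been counted at the WT level. The WT and RARα-KO intervals did not overlap, and the RARα-TG interval overlapped that of WT.

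Trim30d, at the far end of the block, had 116 UMIs in WT T cells (14.6 CPM, 12.04 to 17.5), 3 UMIs in RARα-KO (0.285 CPM, 0.0589 to 0.834) and 32 in RARα-TG (10.0 CPM, 6.84 to 14.1). The log2 ratio of RARα-KO to WT was -5.67 (-7.97 to -4.09), and the 3 UMIs came from 3 different cells. RARα-KO T cells were thus not entirely without Trim30d UMIs, as they were without those of Trim12a.

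Trim34a had 150 UMIs in WT T cells (18.8 CPM, 15.9 to 22.1), 73 in RARα-KO (6.95 CPM, 5.44 to 8.73) and 53 in RARα-TG (16.6 CPM, 12.4 to 21.7). Its log2 ratio of RARα-KO to WT was -1.44 (-1.86 to -1.03), a partial difference in place of a near absence. It was the only one of the 4 lower genes with more than a few UMIs left in RARα-KO T cells.

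Trim12c, the closest relative of Trim12a by name, had 311 UMIs in WT T cells (39.1 CPM, 34.8 to 43.7), 501 in RARα-KO (47.7 CPM, 43.6 to 52.0) and 132 in RARα-TG (41.3 CPM, 34.5 to 48.9). The log2 ratio of RARα-KO to WT was 0.29 (0.08 to 0.50), and it turned to -0.08 (-0.55 to 0.39) once each cell was thinned to 1000 UMIs. Trim30a, which restrains NF-κB signaling, had 429 UMIs in WT T cells (53.9 CPM, 48.9 to 59.2), 632 in RARα-KO (60.1 CPM, 55.5 to 65.01) and 138 in RARα-TG (43.1 CPM, 36.2 to 51.0). Its log2 ratio of RARα-KO to WT was 0.16 (-0.02 to 0.34), an interval that holds 0. Both genes thus lay well inside a 2-fold change in RARα-KO T cells.

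In T cells, Trim30c had 1 UMI in WT, 4 under RARα-KO and 0 under RARα-TG, and Trim30b had 0 in all of them, so neither could be compared. Counted over the members with 30 or more UMIs in WT and RARα-KO T cells together, 4 of 6 were at least 2-fold lower in RARα-KO, or 3 of 5 without Trim12a, and none was 2-fold higher. Among all 10489 genes that passed the same count, 2.76% were at least 2-fold lower and 1.6% at least 2-fold higher. Without Trim12a the median log2 ratio of the members was -1.44, against -0.03 over all those genes.

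**Figure D1:**
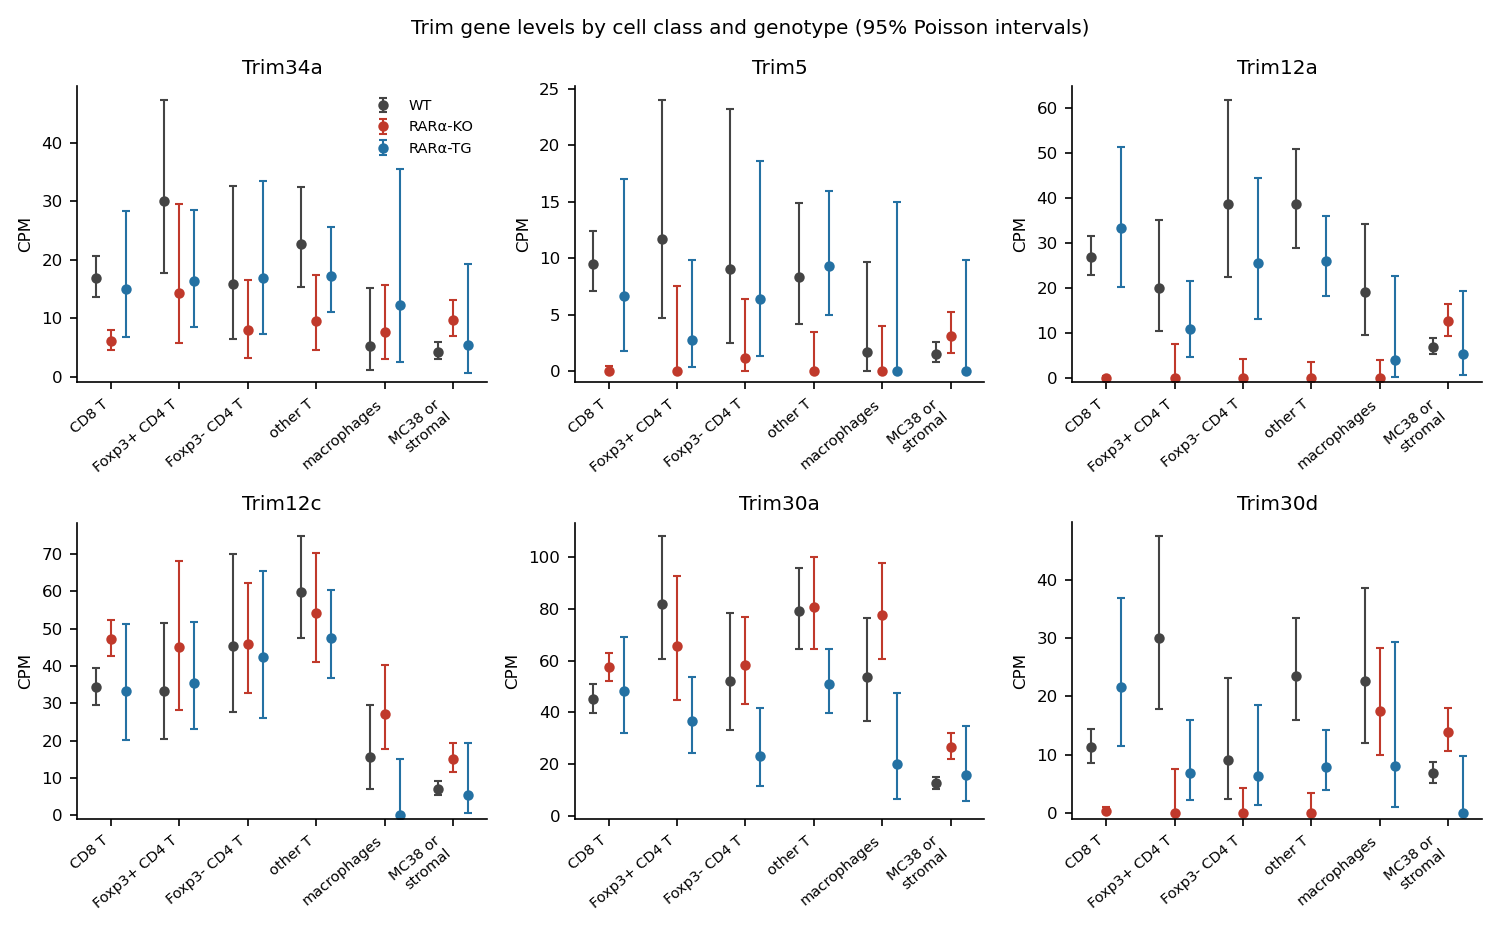
Level of 6 Trim genes in CPM (vertical axis, linear, a separate scale for each gene) in 4 classes of T cells, macrophages and MC38 or stromal cells (horizontal axis) of WT, RARα-KO and RARα-TG tumors. Points are sums over the cells of 1 sample and bars are 95% Poisson intervals of the count. Trim12a, Trim5 and Trim30d lay at or near 0 in every RARα-KO T cell class, Trim12c and Trim30a did not, and all 6 were detected in RARα-KO MC38 or stromal cells.

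The members were then read in each T cell class. In CD8 T cells (Cd8a detected and Cd4 not; 842 WT and 1174 RARα-KO cells), Trim5 had 0 UMIs in RARα-KO compared with 53 in WT, a ratio of at most -4.67 on the log2 scale, where 76.6 UMIs would have been counted at the WT level. Trim30d had 63 UMIs in WT against 3 in RARα-KO CD8 T cells (-4.92, -7.24 to -3.31), and Trim34a had 95 and 49 (-1.49, -2.01 to -0.97). Trim12c, with 192 and 382 UMIs, was higher in RARα-KO CD8 T cells (0.46, 0.21 to 0.72), and so was Trim30a with 253 and 464 UMIs (0.34, 0.12 to 0.57). Of the 5 members other than Trim12a, which was chosen from these cells, 3 were at least 2-fold lower and 0 higher, against 2.43% and 2.06% of 9971 genes. WT CD8 T cells came mainly from clusters c2 (38.6%, led by granzyme genes such as Gzmf) and c0 (29.2%, led by Gzma and Ccl5), and RARα-KO CD8 T cells from c0 (33.9%) and c5 (25.7%, led by Serpine2 and Prf1), so the 2 sets of cells differed in state.

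In CD4 T cells the counts were low: only Trim12c and Trim30a passed 30 UMIs in the Foxp3-positive and the Foxp3-negative class. In Foxp3-positive CD4 T cells, the regulatory class, Trim30d had 18 UMIs in WT against 0 in RARα-KO (-2.29 or lower), Trim12a had 12 and 0, and Trim5 had 7 and 0. Trim34a had 18 and 7 (-1.07, -2.57 to 0.26), a difference within counting error. Trim12c had 20 and 22 UMIs in the same cells (0.43, -0.51 to 1.38) and Trim30a had 49 and 32 (-0.32, -1.01 to 0.35). In Foxp3-negative CD4 T cells, Trim12a had 17 UMIs in WT against 0 in RARα-KO (-3.49 or lower), while Trim12c stood at 45.3 CPM in WT and 45.8 CPM in RARα-KO (0.01, -0.80 to 0.87). The other 3 genes that were lower in all T cells had too few UMIs there to be told apart: Trim30d had 4 and 0, Trim5 had 4 and 1 (-2.99, -8.61 to 0.35) and Trim34a had 7 and 7 (-0.99, -2.73 to 0.75). The T cells that met neither gate, which had the lowest median depth (2942 UMIs in WT and 3035 in RARα-KO), had 51 and 0 UMIs of Trim12a and 31 and 0 of Trim30d (-3.05 or lower), but 79 and 57 of Trim12c (-0.15, -0.66 to 0.36).

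By cluster, Trim12a UMIs were present in 10 of the 11 T cell clusters in WT and in 0 of 11 in RARα-KO, which describes the loss by which Trim12a was chosen. Among the 8 T cell clusters with 30 or more cells of both genotypes, Trim12a, Trim30d and Trim34a were lower in RARα-KO in all 8, and Trim5 in 7, the remaining cluster having no Trim5 UMI in either genotype. This tally had no UMI limit, and the clusters are parts of the same 1 sample of each genotype. Some entries rest on few UMIs: in cluster c8, Trim5 had 2 in WT and 1 in RARα-KO, and Trim30d had 2 and 0. Trim12c was higher in RARα-KO in 6 of those 8 clusters and Trim30a in 7. Both were lower in RARα-KO in cluster c12, which was led by interferon-stimulated genes. There Trim12c had 209 CPM in WT (33 UMIs) and 107 CPM in RARα-KO (37 UMIs), and Trim30a had 317 CPM (50 UMIs) and 214 CPM (74 UMIs). The WT level of Trim30d ranged from 6.1 to 139 CPM over the 8 clusters and its RARα-KO level from 0 to 5.78 CPM.

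Macrophages, which are host cells in which the distal Lck promoter is not known to act, separated the members further. Trim12a had 11 UMIs in WT macrophages (19.1 CPM, 9.53 to 34.2) but 0 in RARα-KO ones (up to 3.27 CPM for a count of 0), a ratio of at most -2.55 on the log2 scale. Trim30d had 13 UMIs in WT macrophages (22.6 CPM, 12.01 to 38.6) and 16 in RARα-KO (17.4 CPM, 9.96 to 28.3), a log2 ratio of -0.37 (-1.52 to 0.80). Trim30d was therefore still detected in RARα-KO macrophages, where its level was 61.1-fold that of RARα-KO T cells (log2 difference 5.93, 4.13 to 8.35). Its comparison with WT macrophages was below the limit of 30 UMIs, and 7 of the 13 WT UMIs came from 3 cells. The wide interval does not settle whether the level in macrophages was the same in both genotypes.

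The 16 Trim30d UMIs of RARα-KO macrophages were spread over 15 of 126 cells (11.9%, at a median depth of 6455 UMIs), against 3 of 1713 RARα-KO T cells (0.175%), and 9 of 77 WT macrophages (11.7%) had one. The 223803 droplets without a cell, each of 100 or fewer UMIs, held 12 Trim30d UMIs among 1405263 (8.54 CPM, 4.41 to 14.9). That CPM is a share of free RNA and not an amount in a cell, so it cannot be set against the macrophage CPM. How much free RNA the cell droplets held was not tested. The same macrophages held no UMI of Trim12a, whose level in those droplets was 10.7 CPM.

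The other members gave smaller counts in macrophages. Trim5 had 1 UMI in WT and 0 in RARα-KO macrophages, too few to compare. Trim34a had 3 and 7 UMIs (0.55, -1.58 to 3.13), with no sign of the lower level seen in T cells, although the interval is wide. Trim12c had 9 and 25 UMIs (0.80, -0.34 to 2.09) and Trim30a had 31 and 71 (0.52, -0.10 to 1.18). Trim30b had 3 UMIs in each genotype, and Trim30c had 2 and 4. Only Trim12c and Trim30a passed 30 UMIs there, and neither was 2-fold lower or higher (2.76% and 4.76% of 4850 genes).

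Dendritic cells and the Siglech cluster added few counts. Trim12a had 5 UMIs in WT against 0 in RARα-KO dendritic cells (-0.88 or lower) and 9 and 0 in the Siglech cluster (-0.07 or lower). Trim12a, chosen for this loss, thus had 0 UMIs in RARα-KO cells of every named host class. Trim30d had 7 UMIs in WT against 2 in RARα-KO dendritic cells (-1.95, -5.25 to 0.45), and 6 of the 7 came from 3 cells. Neutrophils had 4 Trim30c UMIs in RARα-KO, and had 15 Trim30a UMIs in RARα-KO (195 CPM) and 0 in WT, where only 10 cells were found.

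MC38 or stromal cells under the RARα-KO hashtag expressed every member that their WT counterparts expressed at more than 2 UMIs. Trim12a had 60 UMIs in WT (6.94 CPM, 5.29 to 8.93) and 53 in RARα-KO (12.5 CPM, 9.38 to 16.4), so 53 of the 54 Trim12a UMIs in all RARα-KO cells were in this class and 1 was in an unnamed cluster. Trim30d had 59 UMIs in each (6.82 CPM, 5.19 to 8.80, and 13.9 CPM, 10.6 to 17.98). Trim5 had 13 in each (1.503 CPM, 0.800 to 2.57, and 3.07 CPM, 1.64 to 5.25).

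Within the RARα-KO tumor, Trim12a was at least 43.9-fold higher in MC38 or stromal cells than in T cells, Trim30d 48.8-fold higher (log2 difference 5.61, 3.99 to 7.93) and Trim5 32.3-fold higher (5.01, 2.28 to 10.42). In the WT tumor the order in CPM was the opposite, with Trim12a 4.18-fold higher in T cells than in MC38 or stromal cells, Trim5 6.27-fold higher and Trim30d 2.14-fold higher. Median depth differed, at 29930 UMIs a cell in WT MC38 or stromal cells and 4415 in WT T cells. A Trim12a UMI was found in 17.2% of WT MC38 or stromal cells and 13.4% of WT T cells. For Trim30d the shares were 17.2% and 6.74%, and for Trim5 4.03% and 4.75%. In CPM, Trim12c and Trim30a were higher in T cells in both tumors, by 5.54-fold and 4.24-fold in WT and by 3.15-fold and 2.25-fold in RARα-KO.

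All members counted in MC38 or stromal cells were higher in RARα-KO than in WT. The log2 ratio was 0.85 (0.29 to 1.41) for Trim12a, 1.1 (0.57 to 1.63) for Trim12c, 1.07 (0.68 to 1.46) for Trim30a, 1.03 (0.49 to 1.58) for Trim30d and 1.18 (0.50 to 1.86) for Trim34a, and 4 of these 5 genes passed 2-fold. Of 10677 genes in this class, 2.0% were at least 2-fold higher and 0.918% at least 2-fold lower in RARα-KO. The interferon-stimulated genes were higher as well: 26 of 42 were at least 2-fold higher, with a median log2 ratio of 1.07, such as Bst2 (1.17, 1.13 to 1.21) and Isg15 (1.43, 1.35 to 1.5). Without the dividing cluster of this class the ratios were 0.70 for Trim12a, 0.84 for Trim12c, 0.89 for Trim30a, 0.82 for Trim30d and 0.97 for Trim34a, and 0 of 5 passed 2-fold. The part of the interferon-stimulated genes in the members' difference was not tested.

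**Figure D2:**
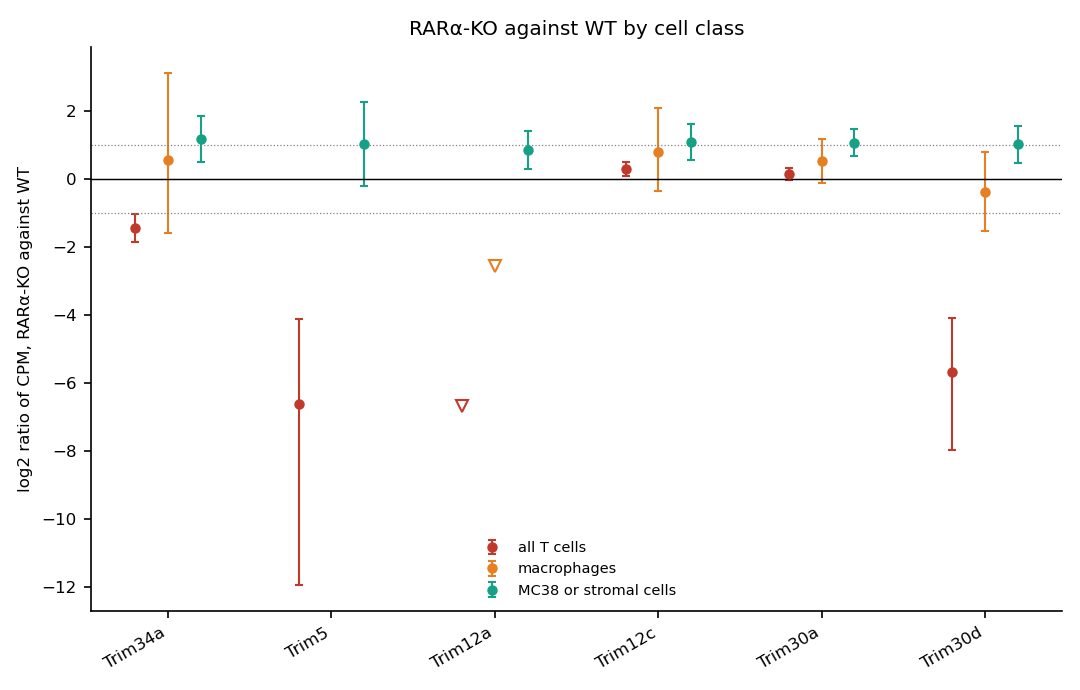
Log2 ratio of CPM, RARα-KO against WT (vertical axis), of 6 Trim genes in map order (horizontal axis) in all T cells, macrophages and MC38 or stromal cells. Points carry 95% counting intervals, open triangles are upper bounds where RARα-KO had 0 UMIs (computed at 3 UMIs), dotted lines mark 2-fold, and pairs with 3 UMIs or fewer in both genotypes are left out. Trim30d lay at -5.67 in T cells and at -0.37 in macrophages, and all 6 genes lay above 0 in MC38 or stromal cells.

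Around the block, genes outside it did not share the difference in T cells. Of 251 genes annotated within 2 Mb of Trim12a on either side, 177 were matched to the matrix and 19 that are no members passed 30 UMIs in WT and RARα-KO T cells. Their median log2 ratio was -0.07. The 2 that were over 2-fold lower were the adult β-globin genes of red blood cells: Hbb-bs had 4632 UMIs in WT against 21 in RARα-KO, and Hbb-bt had 795 and 0. A single WT barcode held 4617 of the Hbb-bs UMIs and all 795 of the Hbb-bt UMIs, so the globin values describe that barcode and not the T cells.

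Trim68, a further TRIM gene beyond the β-globin genes on the side of Trim34a, was the 1 neighbour at least 2-fold higher, with 24 UMIs in WT and 64 in RARα-KO T cells (1.01, 0.32 to 1.76). On the other side, the nearest gene with enough counts was Fam160a2 at 1078 kb, with 122 and 152 UMIs (-0.08, -0.44 to 0.27). The stretch in which members were lower was thus flanked by genes without enough counts on both sides, and its ends could not be placed from these data. In MC38 or stromal cells, 0 of 18 neighbours were 2-fold lower and Gm4070 was higher (1.36). Trim34b, which lies between Trim12a and Trim12c and is no member, had 6 UMIs in RARα-KO T cells, 1 in RARα-TG and 0 in WT, and was singled out after its values were seen.

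**Figure D3:**
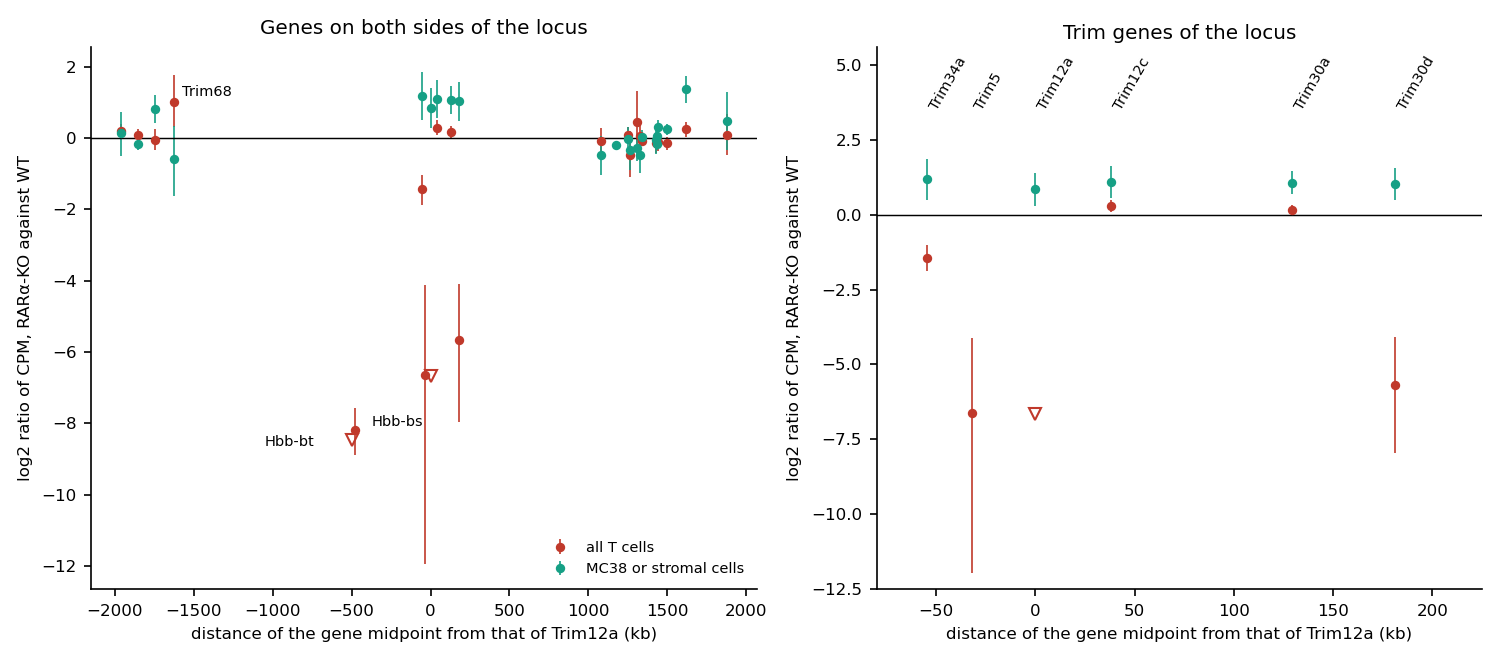
Log2 ratio of CPM, RARα-KO against WT (vertical axes), against the distance of each gene's midpoint from that of Trim12a in kb (horizontal axes), for genes within 2 Mb with 30 or more UMIs in both genotypes together (left) and for the members alone (right), in all T cells and in MC38 or stromal cells. Bars are 95% counting intervals and open triangles are upper bounds for a count of 0 in RARα-KO. In T cells Trim34a, Trim5, Trim12a and Trim30d lay below -1 while Trim12c and Trim30a, between them, lay near 0.

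The other TRIM genes and the pathways of the members gave no parallel in T cells. Of 60 Trim genes outside the block, 26 passed 30 UMIs in WT and RARα-KO T cells, 0 were at least 2-fold lower and 1 (Trim68) was higher, with a median log2 ratio of -0.07. Trim28, a corepressor of retroelements, had 641 UMIs in WT against 794 in RARα-KO (-0.09, -0.24 to 0.06). Of 39 interferon-stimulated genes, 2 were at least 2-fold lower and 0 higher, with a median of 0.04. The 2 lower genes were Slfn5 (91 and 44 UMIs, -1.45, -2.00 to -0.91) and Oasl2 (32 and 14 UMIs, -1.59, -2.61 to -0.65). Of 18 genes whose products work with TRIM5 or TRIM30, such as Ppia, which encodes the capsid-binding cyclophilin A (-0.12, -0.15 to -0.10), and Nfkb1 (-0.13, -0.22 to -0.04), 0 passed 2-fold in either direction and the median was -0.11.

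Summed over all T cells, RARα-TG cells kept the members that RARα-KO cells lacked, while the Trim30d ratio differed between T cell classes, as given below. The log2 ratio of RARα-TG to WT was -0.29 (-0.68 to 0.09) for Trim12a, -0.45 (-1.21 to 0.25) for Trim5, -0.54 (-1.16 to 0.03) for Trim30d and -0.19 (-0.67 to 0.28) for Trim34a. It was 0.08 (-0.23 to 0.38) for Trim12c and -0.32 (-0.61 to -0.04) for Trim30a. Of these 6 members 0 passed 2-fold, against 4.0% of 9989 genes lower and 5.56% higher. RARα-KO and RARα-TG were compared with the same WT cells, so the 2 sets of ratios are not independent.

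For Trim30d the RARα-TG ratio lay on different sides of 0 in CD8 and in Foxp3-positive CD4 T cells, a difference that was not tested. In CD8 T cells, of which RARα-TG had only 113, Trim30d had 63 UMIs in WT and 13 in RARα-TG (11.2 and 21.6 CPM; 0.94, -0.05 to 1.82) and Trim30a had 253 and 29 (0.09, -0.52 to 0.65). In T cells of neither gate, Trim30d had 31 UMIs in WT and 11 in RARα-TG (-1.57, -2.71 to -0.54). Trim30a had 104 and 71 there (-0.63, -1.08 to -0.18). In Foxp3-negative CD4 T cells, Trim30a had 23 and 11 UMIs (-1.16, -2.34 to -0.07), and Trim30d had 4 and 3. In Foxp3-positive CD4 T cells, Trim30d had 18 UMIs in WT and 5 in RARα-TG (30.02 and 6.81 CPM; -2.14, -3.93 to -0.66) and Trim30a had 49 and 27 (81.7 and 36.8 CPM; -1.15, -1.89 to -0.45). Trim30a alone passed both 30 UMIs and 2-fold among 3 members counted in those cells (2.54% of 5423 genes were 2-fold lower), while Trim12c did not differ beyond counting error (0.09, -0.81 to 1.0). Of 26 interferon-stimulated genes in the same class, 9 were at least 2-fold lower in RARα-TG and 0 higher, with a median log2 ratio of -0.78, and their part in the Trim30a difference was not tested.

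RARα-TG macrophages had 5 Trim30a UMIs against 31 in WT (20.3 and 53.8 CPM; -1.41, -3.12 to -0.03), and Trim30a was the 1 member with enough counts (8.78% of 3314 genes were at least 2-fold lower). Interferon-stimulated genes were lower there as well, 25 of 29 by at least 2-fold with a median log2 ratio of -2.58. Trim12a had 1 UMI in RARα-TG and 11 in WT macrophages (-2.23, -7.66 to 0.55), a difference within counting error at this depth. The 35 RARα-TG macrophages held 246113 UMIs in all, so most members could not be compared.

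**Figure D4:**
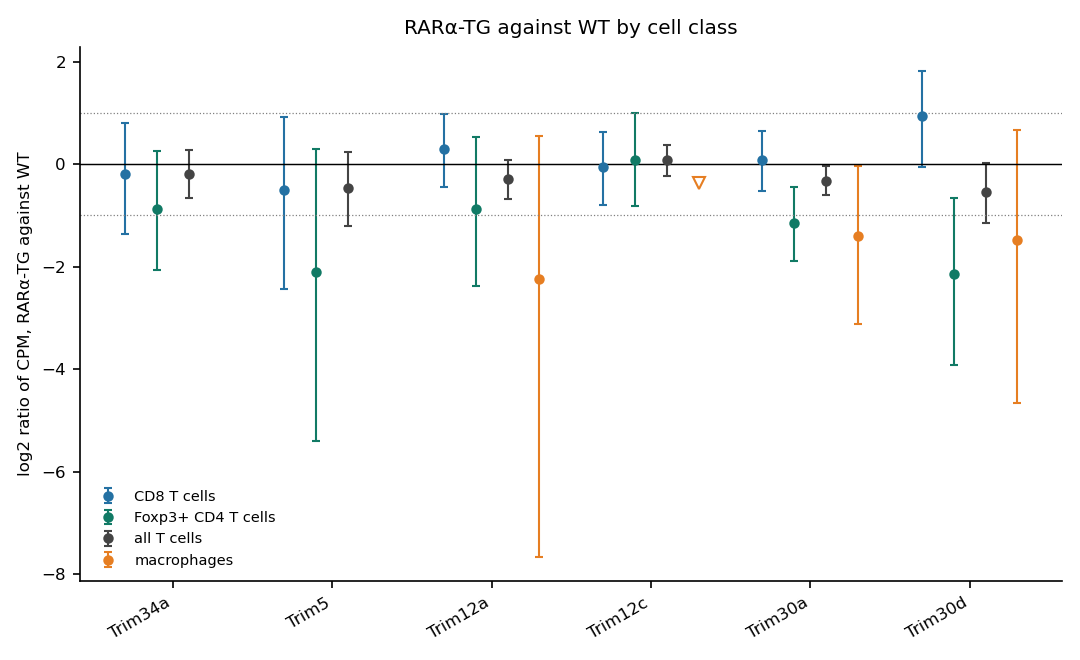
Log2 ratio of CPM, RARα-TG against WT (vertical axis), of 6 Trim genes in map order (horizontal axis) in CD8 T cells, Foxp3+ CD4 T cells, all T cells and macrophages. Points carry 95% counting intervals, the open triangle is an upper bound where RARα-TG had 0 UMIs, dotted lines mark 2-fold, and pairs with 3 UMIs or fewer in both genotypes are left out. Every interval for all T cells lies within or touches the 2-fold lines except those of Trim5 and Trim30d, which run lower, and Trim30a lies below 0 in Foxp3+ CD4 T cells and macrophages.

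In WT, each member had its own order of levels in CPM over cell classes. Trim12a was highest in the Siglech cluster (49.7 CPM, 22.7 to 94.3), then in T cells of neither gate (38.7, 28.8 to 50.9), Foxp3-negative CD4 (38.5, 22.5 to 61.7) and CD8 T cells (27.0, 22.8 to 31.6), whose neighbours in this order overlapped. It was lowest, among the classes in which it was detected, in MC38 or stromal cells (6.94, 5.29 to 8.93), below macrophages (19.1, 9.53 to 34.2) with no overlap. Trim30a was highest in the Siglech cluster too (132 CPM, 84.9 to 197), followed by Foxp3-positive CD4 T cells (81.7, 60.5 to 108), whose interval lay above that of CD8 T cells (45.2, 39.8 to 51.1). Trim30d and Trim34a were likewise higher in Foxp3-positive CD4 T cells (30.02 CPM, 17.8 to 47.4, for each) than in CD8 T cells, where Trim30d had 11.2 CPM (8.64 to 14.4) and Trim34a 16.96 CPM (13.7 to 20.7), although the Trim34a intervals overlapped. Trim12c, by contrast, stood at 33.4 CPM (20.4 to 51.5) in Foxp3-positive CD4 and 34.3 CPM (29.6 to 39.5) in CD8 T cells. Trim30b had 4 UMIs in the Siglech cluster, 3 in macrophages, 2 in MC38 or stromal cells and 1 in neutrophils of WT, and 0 in T cells.

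Within T cells, the members were high in cluster c12, whose leading genes were Ifit1, Ifit3, Usp18 and Isg15 and which was formed without the members among its variable genes. In WT its 35 cells had Trim30a at 317 CPM against 48.6 CPM in the other T cells (log2 difference 2.71, 2.25 to 3.13). Trim12c stood at 209 against 35.6 CPM (2.55, 1.99 to 3.08), and Trim30d at 139 against 12.1 CPM (3.53, 2.79 to 4.21). The differences were smaller for Trim12a (82.4 against 27.9 CPM; 1.56, 0.63 to 2.36), for Trim34a (1.66, 0.50 to 2.62) and for Trim5, with 2 UMIs there (0.44, -2.63 to 2.34). Since a cluster against the rest of the cells it was cut from is no test, these values describe the cluster.

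In the 70 RARα-KO cells of the same cluster, Trim30a had 74 UMIs (214 CPM against 54.9 CPM in the other RARα-KO T cells; 1.96, 1.59 to 2.31), Trim12c had 37 UMIs (107 against 45.7 CPM; 1.23, 0.70 to 1.71) and Trim34a had 11 (31.8 against 6.1 CPM; 2.38, 1.31 to 3.32). Trim30d had 2 UMIs in these cells, compared with 22 in the 35 WT cells, and Trim12a and Trim5 had 0, of which Trim5 had only 2 in the WT cells. Of the 3 Trim30d UMIs in all RARα-KO T cells, 2 were thus in this cluster. The 9 RARα-TG cells had 5 UMIs of Trim12a, 8 of Trim30d and 9 of Trim30a.

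**Figure D5:**
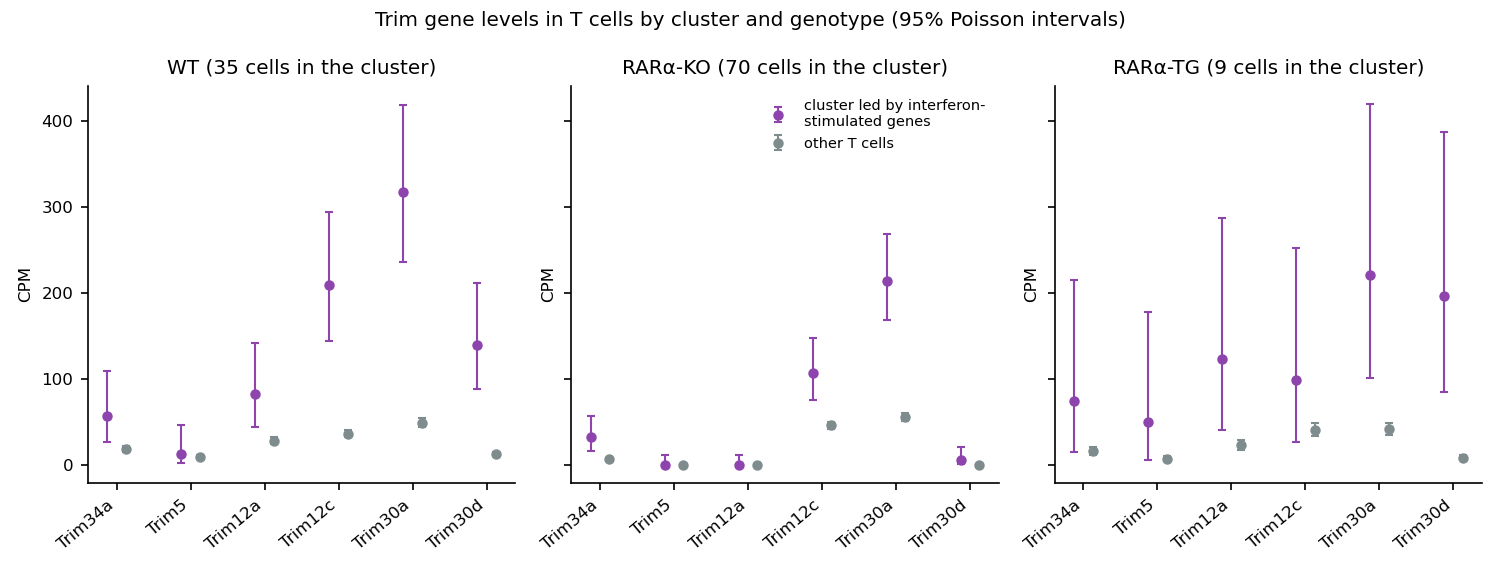
Level of 6 Trim genes in CPM (vertical axis) in the T cell cluster led by interferon-stimulated genes and in all other T cells, by gene (horizontal axis) and genotype (panels). Bars are 95% Poisson intervals of the count. Trim12c, Trim30a and Trim34a were higher in the cluster in WT and RARα-KO, while Trim12a, Trim5 and Trim30d stayed at 0 to 2 UMIs in RARα-KO.

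The genes most like each member in level were named by Pearson correlation of log2(CPM + 10) over 18 units of cell class and genotype, which share 1 library and differ in depth, so the values are descriptions. For Trim12a these were Rpl29 (0.812), Gm47283 (0.782), Slc12a7, Cdip1 and Mapkapk5. Rpl29, a ribosomal protein gene on another chromosome, had 2960 CPM in WT and 319 CPM in RARα-KO T cells (-3.22, -3.27 to -3.16), 1451 and 162 CPM in macrophages (-3.16, -3.42 to -2.91), and 1933 and 1837 CPM in MC38 or stromal cells (-0.07, -0.11 to -0.03). Like Trim12a it was lower in RARα-KO T cells and macrophages and not in MC38 or stromal cells. For Trim30d the order was Tmcc3 (0.747), Rgs19, Gm47283, Klc4 and then Trim12a (0.687).

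For Trim30a the most alike were Icam1 (0.889), an adhesion molecule, Parp14 (0.881), Resf1, Helz2 and Tbk1, the last encoding a kinase of the interferon response. Trim30a and each of these genes had their highest level of all units in RARα-KO neutrophils (37 cells). There Trim30a had 15 UMIs (195 CPM) and Icam1 87 (1132 CPM). How far that unit sets the likeness was not tested. For Trim12c they were Nsd3 (0.928), 1810026B05Rik, Ccdc82, Zfp654 and Tox4, and for Trim34a Ankib1 (0.884), Cnst, Tmem30a, Wdr45 and Faim. Between members, the correlation was 0.687 for Trim12a with Trim30d and 0.630 with Trim34a, 0.606 for Trim12c with Trim30a, and -0.232 for Trim12a with Trim30a. Trim30d with Trim34a had 0.481. The other pairs of a lower and a retained member were mixed in sign. Trim12c had 0.259 with Trim34a, 0.111 with Trim12a and -0.228 with Trim30d, and Trim30a had -0.127 with Trim30d and -0.160 with Trim34a. These values are a description over 18 units that include the RARα-KO ones by which the members were told apart.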

How the data were processed

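Gene expression and antibody hashtags were measured in 1 pooled 10x Genomics 5′ library of MC38 tumor cells from 3 genotypes (WT, RARα-KO and RARα-TG), with T cell receptor contigs. The authors aligned reads to mm10 (GRCm38) with Cell Ranger 6.1.0 per the labels, while the file header names version 4, and deposited raw UMI counts per gene and barcode for all barcodes, without normalization. Cells were called again: an order-of-magnitude step (3000 expected cells, the top percentile divided by 10) gave 2433, and comparing each barcode of at least 500 UMIs with the RNA makeup of empty droplets (1000 simulations, false discovery rate 0.01) gave 3152. Genotypes came from HTODemux (Seurat 5.3.0, quantile 0.99). The 426 barcodes with several hashtags and 234 with none were left out; no doublet caller was run, so doublets within a genotype remain. Cells were clustered in scanpy 1.11.5 (2000 variable genes without the members and receptor segments, 30 components, Leiden resolution 1), and clusters were named from marker lists; names rebuilt in this way may differ from those of the study.

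UMIs were summed per class and genotype and given as CPM with exact Poisson intervals, ratios with exact binomial intervals, and a count of 0 as a bound at a floor of 3 UMIs. Ratios were counted past 2-fold where both genotypes together had 30 or more UMIs, and no p-value was computed. The intervals treat UMIs as independent draws. On simulated counts for RARα-KO against WT T cells, 95.5% of the intervals held the true ratio (10489 genes), and for RARα-TG 95.8% (9989 genes). The alternatives concerned cell calling, hashtag calls, the CPM base, thinning to 1000 UMIs, mitochondrial share, T cell and CD8 definitions, clonotype weights, and the UMI and fold limits. Gene positions were taken from RefSeq annotation of GRCm38.p6. All 8 members are named; list genes are those with the most UMIs and those past 2-fold, neighbours those past 2-fold and the nearest with enough counts, and alike genes the 5 highest correlations among genes with 200 or more UMIs. One result that the naming rule gives is not reported here. The members and lists were chosen with earlier results of these data known.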

Additional observations from a re-analysis of the deposited data

Results flagged for a closer look

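For 3 of the members with 30 or more UMIs in both classes, the RARα-KO to WT log2 ratio had opposite signs in all T cells and in MC38 or stromal cells of the same pair of tumors, and this difference was not tested, since each genotype was 1 sample. Trim12a, which was chosen for its loss in RARα-KO host cells, stood at -6.67 or lower in T cells and at 0.85 in MC38 or stromal cells. Trim30d stood at -5.67 and 1.03. Trim34a stood at -1.44 and 1.18. Trim5, with 13 UMIs in MC38 or stromal cells of each genotype and thus under that limit, stood at -6.63 and 1.03 (-0.20 to 2.26). T cells are host cells and MC38 cells are the injected line, while host stroma in the second class cannot be told apart from MC38 cells.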

How the results depend on the processing

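No paired analysis was possible because each genotype was 1 sample of 1 library, and no replicate could be left out. Of the Trim12a, Trim5, Trim30d and Trim34a ratios of RARα-KO to WT in all T cells, all stayed below -1 under every alternative run: Trim12a between -6.70 and -4.09 (an upper bound throughout), Trim5 between -6.66 and -4.34, Trim30d between -5.70 and -4.29, and Trim34a between -1.61 and -1.30. With the deepest cells only, the Trim12a bound was -5.63 and the Trim30a ratio 0.40, and the RARα-TG ratio of Trim30a turned to 0.023 in all T cells and 0.018 in all host leukocytes. With cells thinned to 1000 UMIs, fewer UMIs raised the Trim12a bound to -4.09, and Trim12c turned to -0.080 in RARα-KO T cells and to -0.0043 in host leukocytes. After thinning, the members past 2-fold lower were 2 of 4 counted in RARα-KO T cells and 1 of 4 in those of RARα-TG. Trim12a is included wherever it passed the UMI limit. The share of all genes under these alternatives is not given here, so these counts and those below are no results about the members. In macrophages at 10 or more UMIs, 1 of 5 members was at least 2-fold lower in RARα-KO, and it was Trim12a, chosen for this loss. In RARα-TG, 3 of 3 were lower at that limit. The intervals of Trim12a (-2.23, -7.66 to 0.55) and Trim30d (-1.47, -4.66 to 0.67) among them held 0. The RARα-TG count was 0 at 100 or more UMIs, in the deepest cells and after thinning, where none passed the UMI limit. At 1.5-fold, 1 member was higher in RARα-KO. In MC38 or stromal cells, 0 members were 2-fold higher in RARα-KO after thinning, where none passed the limit, and 0 of 5 without the dividing cluster, an alternative chosen after seeing the data; the cause was not tested. Leaving out T cell clusters mostly of 1 genotype was also chosen after seeing the data. The depth limits what macrophages, dendritic cells, neutrophils and the Siglech cluster can show, where most members had under 30 UMIs.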
